A study of Mus musculus with 8 samples.

Results

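The pancreata of 8 NOD mice of the same strain, sex and age did not give the same expression profile, and the 200 probes at which the mice of a slide differed most are described here. Each of 8 two-color arrays carried pancreas RNA of a single female NOD mouse, 12 weeks old, labeled red (Cy5), and RNA pooled from 8 age-matched NOD.B10 mice, labeled green (Cy3). NOD (NOD/LtJ) mice develop autoimmune diabetes, and NOD.B10 (NOD.B10Sn-H2b/J) mice are congenic controls on the same background with another haplotype at the major histocompatibility complex (MHC), which protects them. Each of 2 slides held 4 of the mice (slide 1 replicates 1 to 4, slide 2 the others), the dyes were not exchanged, and no transgene or treatment was used. The pool has no spread of its own, and whole pancreas was extracted, so fewer cells of a type and less RNA per cell cannot be told apart in any value below.

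Of 41174 probes, 7770 were rated well above background by the software for red and for green signal in each of the 8 mice (eligible probes). For each, the log2 ratio of NOD mouse over NOD.B10 pool was centered on the mean of its slide, and the standard deviation (SD) over the 8 centered values, with 6 degrees of freedom, was taken as the spread between mice. The 200 probes with the largest SD, 2.57% of the eligible probes, are the members. They hold 184 probes with a gene symbol, for 169 symbols, and 16 without one. Because the SD chose the members, their SD and the groups they form are given as descriptions with no test. At the threshold, the last members by SD were a probe of *Sfrs2*, *Eif2s2* and *MGC73635*, each with an SD of 0.45 (log2), and the next 3 probes were *S100a16*, *Txnip* and *C1qa*, also at 0.45.

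The pancreas is mostly acinar tissue, which makes digestive enzymes, with duct cells, scattered islets of hormone-producing endocrine cells, vessels, nerves and fat. In NOD mice, lymphocytes and myeloid cells gather around and inside the islets (insulitis) and beta cells are lost with time, at a pace that differs between littermates. Reg genes encode small secreted lectin-like proteins that acinar cells are known to raise when the pancreas is injured or inflamed. The tissue label was borne out by its markers, since 32 of the 34 acinar genes on the array were eligible.

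The members had a median SD of 0.54, with a range of 0.45 to 2.20, and all eligible probes had a median of 0.20. The pool was shared by all arrays, and the SD of its log2 green signal was 0.22 at the members and 0.20 at all eligible probes (medians). These green values include differences in brightness of whole arrays. With each array's median removed, they fell to 0.09 and 0.08, while those of the red signal were 0.59 at the members and 0.22 at all eligible probes. Repeat spots of 1 probe within an array, 48 eligible probes with 10 spots each, differed by a median SD of 0.09 in log2 ratio on slide 1 and 0.16 on slide 2. The median mean log2 signal of the members, 10.12, was below that of all eligible probes, 10.63.

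**Figure D1:**
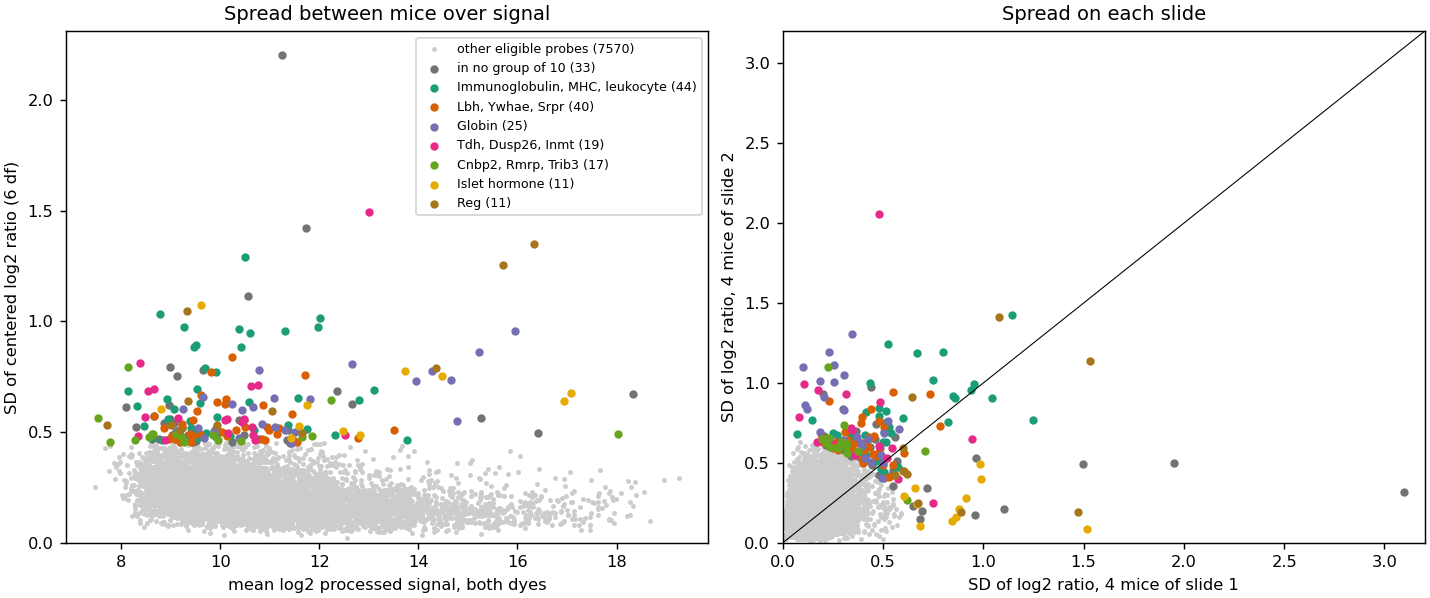
Left, SD of the centered log2 ratio over 8 NOD mice (y axis) against mean log2 processed signal over both dyes (x axis), with the 200 members colored by group, members in no group in dark gray and the other 7570 eligible probes in light gray. Right, SD over the 4 mice of slide 1 (x axis) against SD over the 4 mice of slide 2 (y axis) for the same probes, with the line of equal SD. The members lie above an SD of 0.45 at all signal levels, and islet hormone probes lie below the line while globin probes lie above it.

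Red signal was measured less well on slide 2. By the software's own summary, repeat spots of a probe had a median coefficient of variation of background-subtracted red signal from 16.1% to 24.8% in the mice of slide 1 but from 38.2% to 63.5% in those of slide 2, and the grids of replicates 5, 6 and 7 were not rated good by the software. The median SD of all eligible probes was 0.15 on slide 1 and 0.21 on slide 2, and the SD was larger on slide 2 at 145 of the 200 members (72.5%) and at 70.0% of eligible probes. The most extreme of the 8 centered values lay in replicate 5 for 51 members, in replicate 6 for 38, in replicate 8 for 36 and in replicate 2 for 5. At 48 members a single array gave over 50% of the sum of squares.

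Because each slide held other mice, the same measure could be read in mice that a choice had not used. The 200 probes with the largest SD on slide 1 had a median SD of 0.37 on slide 2, compared to 0.21 for all eligible probes there. The 200 chosen on slide 2 had a median SD of 0.30 on slide 1, compared to 0.15. The lists shared 60 probes, 30.0% of each, where each list is 2.57% of the eligible probes. With background-subtracted signals, 25 were shared (12.5%), and the probes chosen on slide 1 had a median SD of 0.47 on slide 2, compared to 0.42 for all. Of these 60, 24 belong to the immunoglobulin, MHC and leukocyte group described below, 15 to the *Lbh* and *Ywhae* group and 0 to the islet hormone group.

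Average-linkage clustering of the 200 centered profiles (1 minus Pearson's r, cut at r = 0.5) put 167 members into 7 groups of at least 10 probes and left 33 outside them. In the order of size, the groups held 44, 40, 25, 19, 17, 11 and 11 probes. Correlations given below are over 8 arrays that share the pool and the slide centering, and are descriptions.

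**Figure D2:**
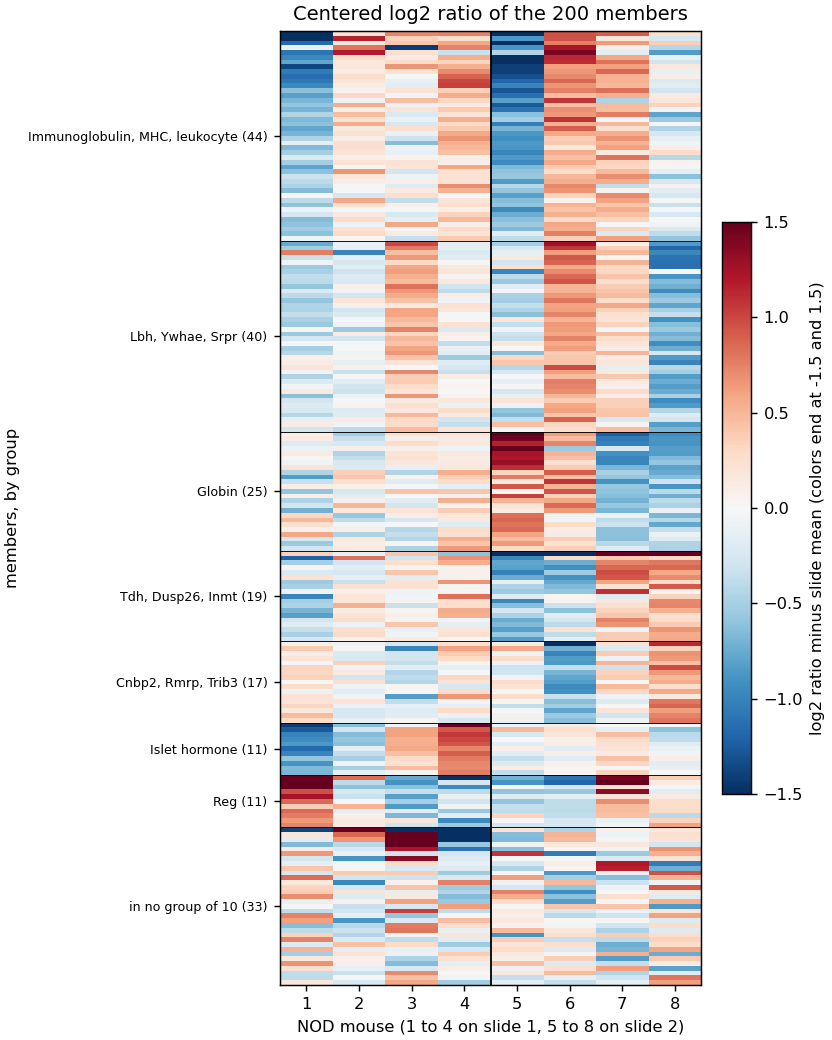
Centered log2 ratio (color, red above and blue below the mean of the slide, colors end at -1.5 and 1.5) of the 200 members (rows, by group, then by SD) in 8 NOD mice (columns, with a line between slides). The immunoglobulin, MHC and leukocyte group is low in the first mouse of each slide, the globin group varies mostly on slide 2 and the islet hormone group mostly on slide 1.

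The 44 probes of the first group were led by immunoglobulin genes, which encode antibody chains, and held MHC genes and genes of leukocytes. Their group mean lay lowest in replicates 1 and 5, at -0.67 and -0.91 below the means of slides 1 and 2, and highest in replicates 4 and 6, at 0.41 and 0.64. Both low arrays were in position 1 of their slide, and the part of position was not tested. The group mean ranged over 1.07 on slide 1 and 1.55 on slide 2. Members correlated with their group mean at a median r of 0.92.

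*Igh-VJ558* (heavy chain, chromosome 12 of mm8, 113706720 to 113706779) had the largest SD of the group, 1.29. Its log2 ratios were 0.25 at the lowest, 2.94 at the median and 3.29 at the highest. The gene was above the pool in all 8 mice, with replicates 1 and 5 lowest. Its other member probes had SDs of 1.01 and 0.95 and each correlated with the first at r = 0.99. The pool's green signal varied at these probes too, with SDs of 0.44, 0.67 and 0.35 after array medians were removed, compared to a median of 0.09 over the members. It was lowest in replicate 5 or 1, where red was also low, and the red SDs were 1.70, 1.67 and 1.25. The part of this green spread in the ratios was not tested. The light chain *Igl-V1* (SD 1.04) ranged from -0.03 over a median of 1.88 to 2.90, and the IgM heavy chain *Igh-6* (SD 0.89) from -0.45 over 1.15 to 1.91. All 5 eligible probes of the immunoglobulin and plasma cell list, for 3 genes, were members. The array symbols of immunoglobulin genes cover near-identical copies, and which V gene a probe reads is uncertain.

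All 3 eligible MHC class II genes were members. *Cd74*, the invariant chain that escorts class II molecules, had an SD of 0.96, with ratios from -0.68 over 1.23 to 2.06. *H2-Eb1* (SD 0.77) ranged from -0.08 over 1.26 to 2.03 and *H2-Ab1* (SD 0.65) from 0.27 over 1.74 to 2.05. All were lowest in replicate 5. The green SD with array medians removed was 0.32 at *H2-Ab1*, 0.17 at *H2-Eb1* and 0.13 at *Cd74*. *H2-Eb1* and *H2-Ab1*, 45432 bases apart on chromosome 17 of mm8, correlated at r = 0.97 (Spearman's rho = 0.98). All 8 mice carry the NOD haplotype, so alleles do not differ within slides, but against the pool an allele that binds a probe differently and a change in level cannot be told apart.

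**Figure D3:**
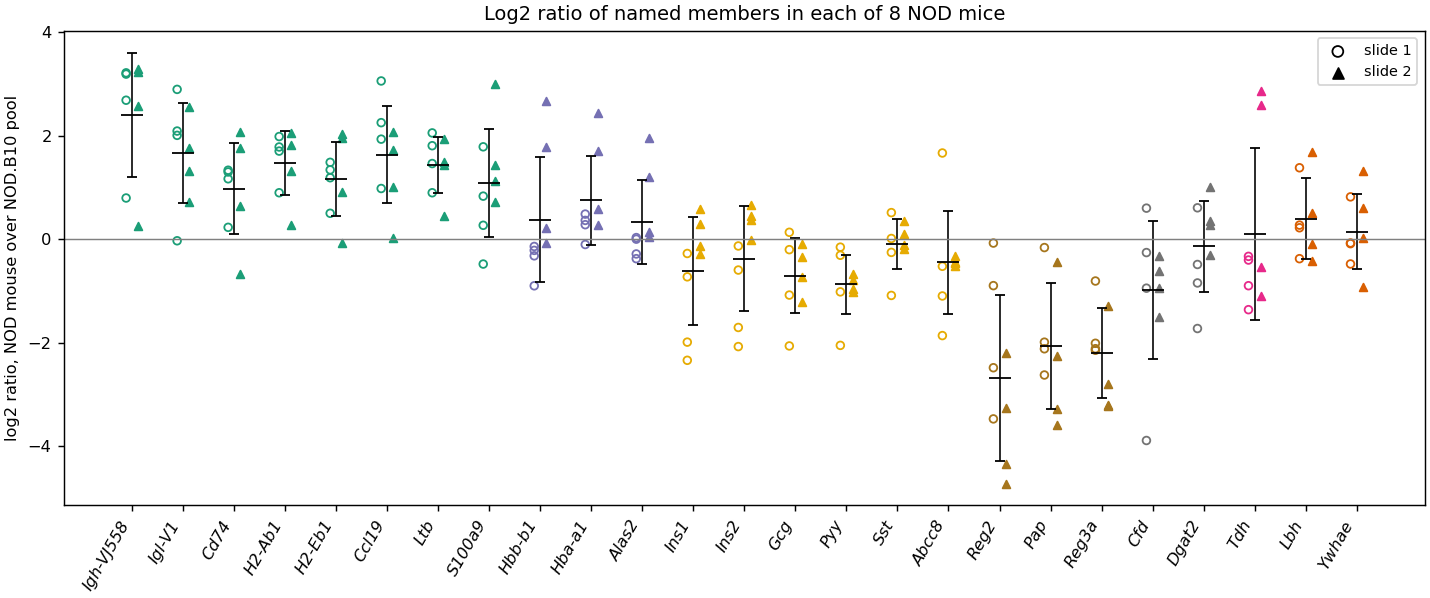
Log2 ratio of NOD mouse over NOD.B10 pool (y axis) for 25 member genes (x axis), with open circles for the 4 mice of slide 1, triangles for the 4 of slide 2, and the mean with the SD over 8 mice as bars. Immunoglobulin, MHC class II and leukocyte genes lie mostly above 0, the Reg genes *Reg2*, *Pap* and *Reg3a* lie below 0 in every mouse, and islet hormone genes reach their lowest values in a mouse of slide 1.

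Among leukocyte genes, *Coro1a*, an actin-binding protein of leukocytes, had an SD of 0.89 and ratios from -0.02 over 1.38 to 2.24. *Ccl19*, a chemokine that draws T-cells and dendritic cells into lymphoid tissue, ranged from 0.03 over 1.83 to 3.06 (SD 0.88), and its second probe followed it at r = 0.99. *Cd52*, *Rac2* and *Ltb*, the lymphotoxin subunit that organizes lymphoid tissue, had SDs of 0.69, 0.62 and 0.57. In all of these the low values were in replicates 1 and 5. Of the myeloid genes, *S100a9*, a calcium-binding protein of neutrophils and monocytes, had an SD of 0.98 and followed the group less closely (r = 0.66), with replicate 6 highest at 3.00. *Ctss*, *Lilrb3* and *Mpeg1*, at SDs of 0.63, 0.52 and 0.48, followed it at r = 0.95, 0.87 and 0.94. *H2-K1*, a class I gene, had an SD of 0.47 and the highest r with the group, 0.99, but all its ratios lay below 0. Another eligible *H2-K1* probe, with an SD of 0.28, correlated with this probe at r = 0.42.

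Most but not all other leukocyte probes correlated positively with the group mean. The 4 eligible T-cell probes were not members, with SDs of 0.27 to 0.39 and a median r of 0.72, and *Cd6* ran the other way at r = -0.51. For the 9 pan-leukocyte probes outside the members the median r was 0.73, with probes of *Pscdbp* at -0.87 and -0.17, and for the 6 myeloid probes it was 0.67, with *C1qb* at -0.09. For the 37 acinar probes it was 0.00337. The group mean also correlated with the median log2 red signal of the array, at r = 0.63 (rho = 0.69, r = 0.78 without the 2 arrays farthest in brightness), and the part of brightness was not tested. Without replicate 5, 27 of the 44 probes were still members. The group also held *Sgk*, *Gadd45g*, *Per1* and *Errfi1*, which respond to glucocorticoids or growth signals, at r = 0.73, 0.84, 0.69 and 0.92. The 22 immediate early probes outside the members had a median r of 0.00534 with this group. They ran from *Klf10* and *Cebpb*, both at -0.78, to *Klf6* at 0.97.

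The 11 probes of the islet hormone group followed their mean most closely of the 7 groups, at a median r of 0.95 and a lowest r of 0.88. It held *Ins1* and *Ins2* (insulin), *Gcg* (glucagon), *Sst* (somatostatin), *Pyy* (peptide YY), *Abcc8* (the sulfonylurea receptor of the beta cell potassium channel), *G6pc2* (a glucose-6-phosphatase of beta cells), *Resp18*, and the granule proteins *Chga* and *Chgb*. The 4 mice of slide 1 were spread over 1.92 in the group mean, from -0.95 in replicate 1 to 0.97 in replicate 4, and the 4 mice of slide 2 over 0.38. The mice between them on slide 1, replicates 2 and 3, had -0.41 and 0.39. The position of the array on its slide correlated with the group mean at r = 0.68 (rho = 0.59), and its part was not tested. Arrays in positions 1 and 4 tie as farthest from the middle of the slide. Leaving out 2 of them gave r = 0.23, a value that rests on a choice among ties. Without replicate 4, 5 of the 11 probes were still members, without replicate 1, 6, and with slide 2 alone, 0.

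*Ins1* (chromosome 19 of mm8, 52318117 to 52318176) had ratios from -2.34 over -0.28 to 0.59 (SD 0.75). *Ins2* ranged from -2.07 over -0.07 to 0.66 on its first probe (SD 0.68), and its second probe followed at r = 0.99. Both genes were lowest in replicate 1 and highest in replicate 7. Hormones of other islet cells spread in the same mice, with *Gcg* from -2.06 over -0.54 to 0.13 (SD 0.78), *Pyy* from -2.05 over -0.87 to -0.15 (SD 0.62) and *Sst* from -1.09 over -0.05 to 0.51 (SD 0.50). Each was lowest in replicate 1 and highest in replicate 4, where *Abcc8* reached 1.67 against -1.86 in replicate 1 (SD 1.07). Of the eligible genes, 6 of 9 on the beta cell list and 3 of 7 on the list of other islet cells were members. The beta cell genes *Pcsk1* (SD 0.21), *Pcsk2* (0.35) and *Ero1lb* (0.27 and 0.18) were not.

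**Figure D4:**
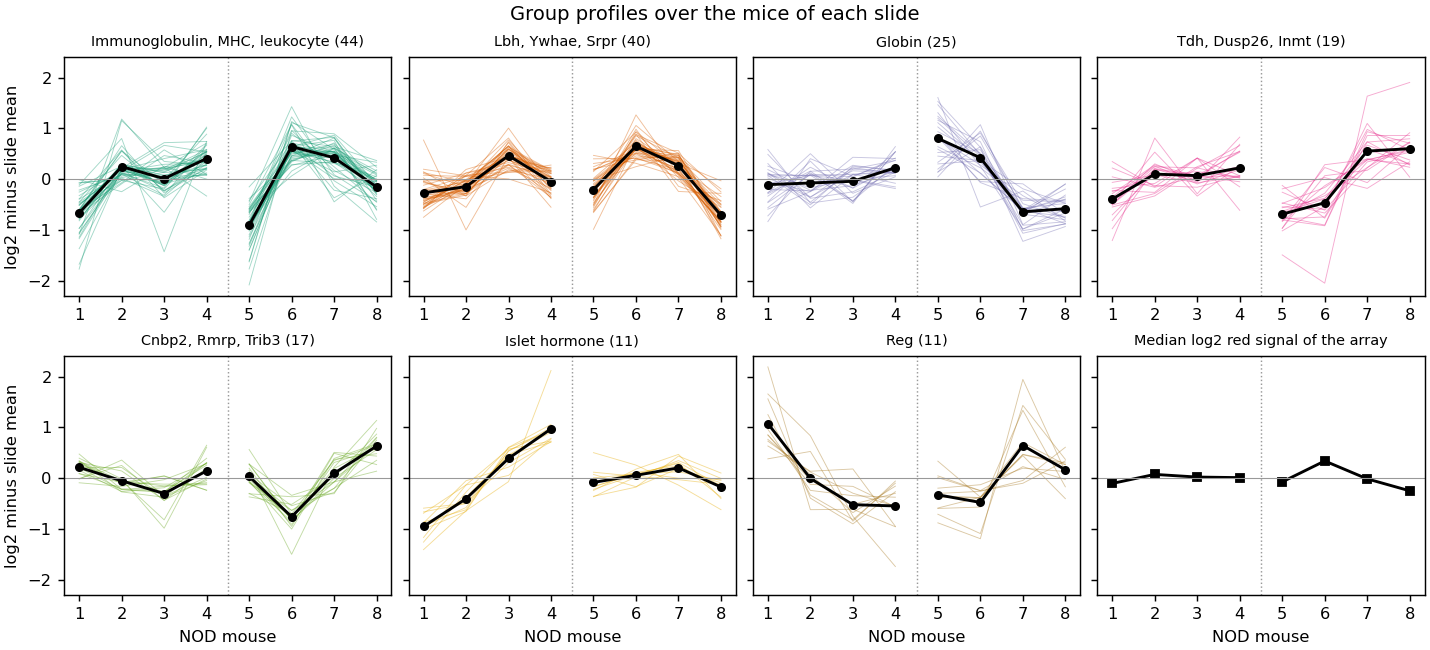
Centered log2 ratio (y axis) over the 8 NOD mice (x axis, slide 1 left and slide 2 right of the dotted line) for each member (thin lines) and the group mean (black) of the 7 groups, with the number of probes in brackets, and in the last panel the median log2 red signal of each array minus its slide mean. The islet hormone group spreads over 1.92 on slide 1 and 0.38 on slide 2, and the globin group over 0.33 and 1.45.

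The Reg group (11 probes) was high in replicate 1 at 1.08 and in replicate 7 at 0.64, and low in replicates 3, 4 and 6 at -0.52, -0.55 and -0.48. *Reg2* had the largest SD, 1.35, and was below the pool in every mouse, from -4.72 over -2.87 to -0.07. *Pap*, now *Reg3b*, ranged from -3.59 over -2.19 to -0.16 (SD 1.26) and *Reg3a* from -3.23 over -2.13 to -0.81 (SD 0.79). All 3 were closest to the pool in replicate 1. The other eligible Reg genes varied less, *Reg1* with an SD of 0.28 and *Reg3d* with 0.21. The group also held *Myl9* (a myosin light chain of smooth muscle, r = 0.96), *LOC675757* (r = 0.96), and *Cxxc6*, now *Tet1*, which reached 2.86 in replicate 1 and stayed between -0.29 and 0.69 in the others. Without replicate 1, 5 of the 11 probes were still members.

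*Pap*, *Reg3a* and *Reg2* lie in a row on chromosome 6 of mm8, with probes 10253 and 24265 bases apart, and correlated at r = 0.97 (*Pap* and *Reg3a*), 0.81 (*Reg3a* and *Reg2*) and 0.80 (*Pap* and *Reg2*). Their promoters are shown because these neighbors moved together. Each line gives the 120 bases before the RefSeq start on GRCm38.p6, at chr6:78405035-78405154, chr6:78370765-78370884 and chr6:78380589-78380708, all on the plus strand. Capitals mark TATAAA, the TATA box, and TGCCAA, which was picked after the 3 sequences had been read, each on either strand.
Reg2: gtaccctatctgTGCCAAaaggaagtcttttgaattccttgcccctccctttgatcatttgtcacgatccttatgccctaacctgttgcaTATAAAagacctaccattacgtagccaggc
Reg3b: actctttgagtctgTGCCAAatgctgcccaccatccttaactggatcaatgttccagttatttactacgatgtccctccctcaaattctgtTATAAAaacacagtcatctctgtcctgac
Reg3a: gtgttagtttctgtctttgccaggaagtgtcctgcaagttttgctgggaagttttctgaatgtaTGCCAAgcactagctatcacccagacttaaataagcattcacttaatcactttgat
*Reg2* and *Reg3b* hold both motifs and *Reg3a* holds TGCCAA. Of 32851 promoter windows of this length, 6.34% hold TATAAA and 5.66% hold TGCCAA.

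The globin group (25 probes) varied on slide 2, over 1.45 in its mean, and little on slide 1, over 0.33. Against the mean of the slide, replicates 5 and 6 were high at 0.80 and 0.42, and replicates 7 and 8 low at -0.64 and -0.58. Its leading genes are those of red blood cells, which enter whole pancreas with its blood. All 4 probes of *Hbb-b1* (adult beta globin) and both of *Hba-a1* (alpha globin) were members, with *Alas2* (the first enzyme of heme synthesis in red cells) and *Slc25a37* (a mitochondrial iron carrier of red cells). The first *Hbb-b1* probe (chromosome 7 of mm8, 103687307 to 103687366) ranged from -0.90 over -0.11 to 2.68 (SD 0.95), *Hba-a1* from -0.10 over 0.43 to 2.45 (SD 0.73), *Alas2* from -0.38 over 0.03 to 1.95 (SD 0.66) and *Slc25a37* from -0.14 over 0.23 to 1.62 (SD 0.60). Replicate 5 was highest for each. Of the erythroid list, 3 of 4 eligible genes were members, and *Bpgm* (SD 0.27) was not. Without replicate 5, 15 of the 25 probes were still members.

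Globin probes agreed closely with each other, at r = 0.96 to 1.00 among the 4 of *Hbb-b1* and 0.99 between those of *Hba-a1*. Globin genes come in near-identical copies, and which copy a probe reads is uncertain. The promoters of the beta globin genes *Hbb-bs* and *Hbb-bt* (minus strand, chr7:103827929-103828048 and chr7:103813924-103814043) and of *Hba-a1* (plus strand, chr11:32283552-32283671), the 120 bases before the RefSeq start on GRCm38.p6, are shown because genes on separate chromosomes moved together. Capitals mark CACCC and CCAAT on either strand, so that CCAAT on the other strand reads as its reverse complement.
Hbb-bs: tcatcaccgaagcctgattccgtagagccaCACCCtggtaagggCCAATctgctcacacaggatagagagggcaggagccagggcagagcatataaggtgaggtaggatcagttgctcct
Hbb-bt: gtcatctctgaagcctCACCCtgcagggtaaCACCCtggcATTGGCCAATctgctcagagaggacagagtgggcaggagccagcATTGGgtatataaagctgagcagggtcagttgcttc
Hba-a1: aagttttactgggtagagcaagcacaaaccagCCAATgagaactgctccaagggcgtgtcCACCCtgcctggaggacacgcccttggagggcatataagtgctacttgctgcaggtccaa
All 3 hold both motifs. CACCC stands in 31.7% of all promoter windows of this length, CCAAT in 21.3% and both in 6.23%.

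Not every member of the globin group belongs to red cells. *Fgf21*, a hormone that pancreas and liver secrete under nutrient stress, had 2 member probes at SDs of 0.52 and 0.51. The first followed the group mean at r = 0.70 and ranged from -0.46 over 0.42 to 1.05. *Dnajb9*, a chaperone of the endoplasmic reticulum, also had 2 member probes, at 0.60 and 0.52, and the matrix genes *Mgp* and *Lum* were members too. *Stmn1*, a microtubule regulator of dividing cells, had an SD of 0.47 and an r of 0.87.

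The *Tdh* group (19 probes) ran against the globin group, with r = -0.85 between the group means (Spearman's rho = -0.76, r = -0.68 without the 2 arrays farthest from the median). This came from slide 2, where r was -0.99 over 4 arrays, while on slide 1 it was 0.66. Its mean was -0.69 and -0.47 in replicates 5 and 6, and 0.55 and 0.60 in replicates 7 and 8. *Tdh*, threonine dehydrogenase, had the second largest SD of all members. It ranged from -1.36 over -0.47 to 2.86, with replicates 7 and 8 high and the other 6 mice below 0. Before centering, *Tdh* stood at -0.53 and -1.09 in replicates 5 and 6, within its slide 1 range of -1.36 to -0.33. The first *Hbb-b1* probe stood at -0.08 and 0.22 in replicates 7 and 8, and between -0.90 and -0.14 on slide 1. At these probes, a negative centered value on slide 2 was thus not a level below the slide 1 range. *Dusp26* (a phosphatase, from -1.23 over -0.73 to 0.35) and *Inmt* (a methyltransferase, from -0.54 over 0.37 to 1.46) had SDs of 0.71 and 0.70. *Ifi27*, an interferon-responsive gene, followed the group at r = 0.96 and *Clmn* at r = 0.92. *Mcm6* and *Mcm3*, subunits of the helicase that opens DNA for replication, had SDs of 0.54 and 0.48. The probe *2010309G21Rik*, described in the files as an immunoglobulin lambda clone, was in this group at r = 0.65. The position of the array on its slide correlated with the group mean at r = 0.84, and its part was not tested.

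The remaining groups had the largest correlations with the brightness of the arrays when all 8 were used, an order that did not hold without the 2 arrays farthest in brightness. The *Lbh* and *Ywhae* group (40 probes) was high in replicates 3 and 6 at 0.46 and 0.65 and low in replicate 8 at -0.71. The *Cnbp2* and *Rmrp* group (17 probes) was low in replicates 3 and 6 at -0.30 and -0.76 and high in replicate 8 at 0.63. The group means ran against each other at r = -0.90 (Spearman's rho = -0.81, r = -0.68 without the 2 arrays farthest from the median). The array's median log2 red signal correlated with the first at r = 0.84 (rho = 0.83) and with the second at r = -0.94 (rho = -0.88). Without the 2 arrays farthest in brightness, these were 0.41 and -0.55, below the 0.78 of the immunoglobulin group, while the *Tdh* group turned from -0.38 to 0.64. The part of brightness in these groups was not tested. Of the 17 probes of the *Cnbp2* and *Rmrp* group, 3 were still members without replicate 6, 8 without replicate 8, 2 with slide 1 alone and 1 with the red signal alone. Of the 40 probes of the *Lbh* and *Ywhae* group, 22 were still members without replicate 8. Of the 7570 eligible probes outside the members, 558 (7.37%) followed the first at r above 0.8 and 579 (7.65%) the second, compared to 90 to 211 for the other 5 groups.

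In the first of these, *Lbh*, a cofactor of transcription, had an SD of 0.84 and ranged from -0.43 over 0.25 to 1.69. *Ywhae*, an adaptor of the 14-3-3 family, ranged from -0.92 over -0.03 to 1.31 (SD 0.77, r = 0.99 with the group mean), but another probe of *Ywhae* ran the other way at r = -0.57. *Larp1*, *Ube1x* and *Pi4k2b* were as close to the mean, at r = 0.99, 0.98 and 0.98. Other probes of *Larp1* correlated with its member probe at r = 0.86 and 0.49, and another of *Pi4k2b* at r = -0.24. *Myc*, a growth regulator, had 2 member probes, the first from -1.12 over -0.24 to 0.58 (SD 0.62). *Mt1*, a metal-binding protein, had a member probe here (SD 0.76, from -2.30 over -0.69 to 0.72), *Slc7a1*, a transporter of basic amino acids, had an SD of 0.50, and *Lpl*, the lipase of fat and muscle capillaries, 0.45. The group held *Xbp1* and *Eif2ak3*, known from the endoplasmic reticulum stress response, and *Srpr*, a receptor for the signal recognition particle. Of the 55 eligible probes on the list of chaperones and the unfolded protein response, 3 (5.45%) were members, *Xbp1* here and both *Dnajb9* probes in the globin group, and the other 52 followed this group at a median r of 0.11. The 37 acinar probes, outside the members, followed the *Lbh* and *Ywhae* group at a median r of 0.59, from -0.87 (*Amy1*) to 0.99 (*Pnliprp2*). With the *Cnbp2* and *Rmrp* group their median r was -0.63.

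The second held probes of low signal, with a median of 9.22 (log2) compared to 10.63 for all eligible probes. *Cnbp2*, now *Zcchc13*, was above the pool in every mouse, from 1.54 over 2.06 to 3.31 (SD 0.56). *Rmrp*, the RNA of a ribonuclease, ranged from -0.73 over -0.11 to 0.68 (SD 0.46), *Rpl23*, a ribosomal protein, from -1.44 over -0.32 to -0.05 (SD 0.48), and *Trib3*, a pseudokinase of the amino acid response, from -0.77 over 0.45 to 0.80 (SD 0.48). Replicate 6 was lowest in all 3. Another *Rpl23* probe had an SD of 0.14 and correlated with the member at r = -0.23. *Cyp2w1*, a cytochrome, ranged from 0.20 over 1.39 to 3.12 (SD 0.48), and its green signal varied nearly as much, at an SD of 0.46 with array medians removed.

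Of the other group pairs, the islet hormone and Reg groups ran against each other at r = -0.70 (Spearman's rho = -0.74), but at r = -0.16 without the 2 arrays farthest from the median, so the relation rests on those arrays. On slide 1 it was -0.91 and on slide 2 0.41, each over 4 arrays. The globin and Reg groups had r = -0.59 (rho = -0.71, r = -0.49 without the 2 farthest), and the immunoglobulin and *Lbh* groups r = 0.56 (rho = 0.76, 0.65 without them). The immunoglobulin group and the islet hormone group had r = 0.53 (rho = 0.50), and r = 0.25 without the 2 farthest arrays. The globin and *Cnbp2* groups had r = -0.51 (rho = -0.55), and r = -0.82 without the 2 farthest. For the *Tdh* and *Cnbp2* groups r was 0.51 (rho = 0.55), and 0.38 without them.

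Among the 33 members outside the groups, *Kcnk13*, a potassium channel, had the largest SD of all, 2.20. Its ratios were 0.23 at the lowest, 0.88 at the median and 7.14 at the highest, in replicate 2. On that array its spot was irregular in both dyes, with log2 signals of 21.4 in red and 14.3 in green, while the medians over the arrays were 10.81 and 10.01. Without the irregular spot its SD was 0.26 and it was not a member. *Cfd*, adipsin, a protease of fat cells and of the complement pathway, ranged from -3.89 over -0.77 to 0.60 (SD 1.42), with replicate 4 lowest. The probe *NAP025923-1*, named after its values had been seen, lies 177 bases from it on chromosome 10 of mm8 (79295284 to 79295509) and moved with it at r = 0.99 (SD 1.12). *Dgat2*, which makes triglycerides, ranged from -1.73 over -0.01 to 1.00 (SD 0.78) and was also lowest in replicate 4. Other fat cell probes spread little, with *Fabp4* at 0.21 and 0.12, *Pparg* at 0.12 and *Pnpla2* at 0.17, so 3 of 7 eligible adipocyte genes were members.

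Gene lists with at least 3 member genes numbered 13 of 36. Against the background of 2.57%, members were 5 of 5 eligible probes of the immunoglobulin list, 3 of 3 of MHC class II, 7 of 8 of erythroid cells, 7 of 11 of beta cells and 3 of 5 of the Reg family. They were 6 of 15 on the glucocorticoid and metallothionein list, 6 of 28 on the immediate early list, 3 of 15 on the cell cycle list and 4 of 51 on the list of ATF4 and the amino acid response. Several of these counts depended on the signal used. With background-subtracted signals the member genes fell from 5 to 0 on the immediate early list, from 5 to 1 on the glucocorticoid list, from 3 to 0 on the cell cycle list and from 6 to 3 on the beta cell list, and rose from 3 to 5 on the ATF4 list. With the red signal alone there were 2 beta cell genes, 0 cell cycle genes and 0 genes of the ATF4 list. The immunoglobulin and Reg lists had 3 member genes in each of these settings. The MHC class II and erythroid lists each fell from 3 to 2 with background-subtracted signals and had 3 with the red signal alone. At the other end, 0 of 37 acinar probes were members, and their median SD of 0.20 equaled that of all eligible probes. The enzymes *Pnlip* (0.33 and 0.19 on 2 probes), *Cel* (0.23) and *Cpa1* (0.25) lay below the threshold. The list does not hold every acinar protease. *1810009J06Rik* and *2210010C04Rik*, of the trypsinogen family and named after their values had been seen, were members with SDs of 0.69 and 0.67. The first ranged from -0.12 over 0.24 to 2.13 and the second from -0.42 over 0.06 to 2.36, with replicate 3 and replicate 7 highest. They lie 66846 bases apart on chromosome 6 of mm8 and correlated at r = 0.01, and another probe of the second had an SD of 0.14. No member came from the duct (12 probes), heat shock (26) or cholesterol synthesis (18) lists. Ribosomal protein genes had 1 member among 117 probes (median SD 0.14) and oxidative phosphorylation 1 among 93 (0.14).

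**Figure D5:**
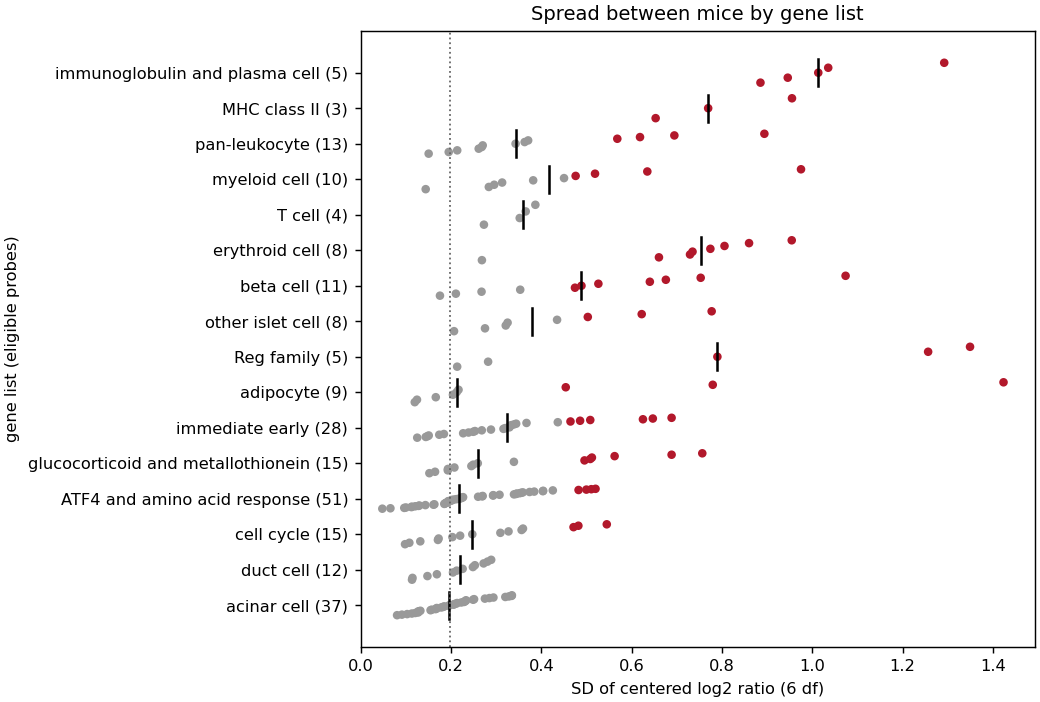
SD of the centered log2 ratio (x axis) of each eligible probe on 16 gene lists (y axis, number of eligible probes in brackets), with members in red, other probes in gray, the list median as a black bar and the median of all eligible probes as a dotted line at 0.20. All immunoglobulin and MHC class II probes are members, and all acinar and duct probes lie below the threshold of 0.45.

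Second probes were read where a member gene had another eligible probe, in 51 pairs for 37 genes. The median r was 0.82 and 34 pairs had an r above 0.5. In the 19 pairs where both probes were members the median r was 0.98, and in the 32 where the other was not, 0.55. In the immunoglobulin and leukocyte group 7 of 9 pairs passed 0.5, in the globin group 9 of 9, in the *Lbh* and *Ywhae* group 12 of 20 (8 with background-subtracted signals), in the *Tdh* group 1 of 3 and in the *Cnbp2* and *Rmrp* group 1 of 2. Second probes of *Coro1a*, *Rac2* and *Trib3* followed at r = 0.96, 0.90 and 0.91, while those of *Eif2s3x* and of *Srpr* went as low as -0.92 and -0.79.

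The mean over the 8 mice is removed by the centering, so whether members differ from the NOD.B10 pool is a separate measure. Of 28105 probes with a symbol that passed the signal filter, limma's moderated test called 484 (1.72%, with 0.31% higher and 1.41% lower) at 2-fold and a Benjamini-Hochberg adjusted p under 0.01, and 47 of the 7374 that were also eligible (0.637%). Of the 184 members tested, 14 were called (7.61%), 13 higher (7.07%, compared to 0.515% of eligible probes) and 1 lower (0.543%, compared to 0.122%). All called members are named below, also those outside the naming rule, which were picked after their values had been seen. With background-subtracted signals more members were called in each direction, as the last section gives.

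The highest was *LOC675757*, with a mean log2 ratio of 2.87 ± 0.72 (SD, n = 8, limma adjusted p = 0.000726). *Igh-VJ558* had 2.40 ± 1.20 (n = 8, limma adjusted p = 0.00704) and 1.88 ± 0.94 (n = 8, limma adjusted p = 0.00718) on 2 probes, and *Cnbp2* had 2.22 ± 0.68. The pool's log2 green signal was weak at *LOC675757* (5.90 to 6.48) and *Cnbp2* (5.99 to 6.72). Array medians of green over eligible probes were 10.3 to 10.9. Of the immune genes, *Ccl5*, a chemokine for T-cells, had 1.62 ± 0.53 (n = 8, limma adjusted p = 0.00173), *H2-Ab1* 1.48 ± 0.62, *Ltb* 1.44 ± 0.54, *Cd52* 1.44 ± 0.65, *Plac8* 1.41 ± 0.57 and *LOC665500*, described in the files as similar to a T-cell receptor beta chain, 1.41 ± 0.47. *Iigp2*, an interferon-inducible GTPase, was called as well, with a median of 1.59 over the mice. *Tmco6* and another member probe of *Sfrs2* were called at 2.16 ± 0.85 and 1.01 ± 0.54. Each called gene was above the pool in 8 of 8 mice, except *Iigp2* in 7. The 1 member called lower was *Reg3a*, at -2.20 ± 0.86 (n = 8, limma adjusted p = 0.00305) and lower in 8 of 8 mice. *Pap* (-2.06 ± 1.22) and *Reg2* (-2.68 ± 1.61) were also below the pool in every mouse and missed the threshold, with limma adjusted p of 0.0133 and 0.0140. No islet hormone gene was called, with means of -0.61 for *Ins1*, -0.38 and -0.43 for *Ins2* and -0.70 for *Gcg* (limma adjusted p = 0.274, 0.495, 0.331 and 0.0844).

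*LOC675757*, *Cnbp2*, *Ccl5*, *Ltb* and *LOC665500* passed with any 1 mouse left out. Leaving out replicate 5 raised the members called higher from 13 to 18 and replicate 1 left 13. Leaving out replicate 2, 3, 4 or 6 left 6, leaving out replicate 7 left 7 and replicate 8 left 8, and leaving out replicate 3 or 4 lost the call of *Reg3a*.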

How the data were processed

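Pancreas RNA of 8 NOD mice (red) was hybridized with an NOD.B10 pool (green) on 8 arrays. Per the file headers, the authors extracted the images with Agilent Feature Extraction 10.7.3.1, and each deposited file gives a log10 ratio of red over green per spot and the processed and background-subtracted intensity of each dye. Deposited probe positions are on mm8, and promoters are those of RefSeq on GRCm38.p6. An array has no read depth, and the number of arrays, the noise of the spots and the single pool limit precision. The p-values measure the spread between these 8 mice against a single pool.

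Spots of a probe were averaged, the log10 ratio was converted to log2, and probes were centered, ranked and clustered with Python 3.11.15 (numpy 2.4.6, pandas 2.3.3, scipy 1.17.1, statsmodels 0.14.6, matplotlib 3.10.9). The mean ratio was tested against 0 with limma 3.58.1 in R 4.3.3, over probes with a symbol whose red signal reached 25 in 4 or more of the 8 arrays, with calls at 2-fold and a Benjamini-Hochberg adjusted p under 0.01. The scripts were tested on simulated data.

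The members, gene lists and tests were chosen with earlier results of these data known. Genes were named if they were among the 20 members with a symbol and the largest SD, among up to 4 members by SD of a list with at least 3 member genes, among the 4 members closest to a group's mean, or next to the threshold. Other genes named were picked after their values had been seen. Alternatives changed the centering, measure of spread, signals, filters, clustering, thresholds and mice used.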

Additional observations from a re-analysis of the deposited data

Results flagged for a closer look

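In 70 probes of the named genes and in 7 groups, the gap between the highest or lowest mouse and its nearest neighbor was set against the whole range of the 8 mice by Dixon's criterion, which chance exceeds in about 1 of 20 sets that were not chosen for their spread. The criterion was exceeded by 6 genes. Most of the genes were named for a large SD over these same mice, which favors a single far array, so that rate does not apply to them and the values are a description. *Kcnk13* had a gap of 0.872 of its range, with replicate 2 at 7.14 and the others between 0.23 and 1.11, on the irregular spot described above. *Cxxc6* had a gap of 0.687, with replicate 1 at 2.86 and the others between -0.29 and 0.69. *Trib3* had 0.672, with replicate 6 at -0.77 and the others between 0.29 and 0.80. *Abcc8* had 0.562, with replicate 4 at 1.67 and the others between -1.86 and -0.32. *Pyy* had 0.539, with replicate 1 at -2.05 and the others between -1.03 and -0.15. *Cfd* had 0.532, with replicate 4 at -3.89 and the others reaching up to 0.60.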

How the results depend on the processing

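The 200 members depended on the signals used. Of them, 103 were kept without centering on the slide, 114 with the median absolute deviation, 89 with the red signal alone, 94 with background-subtracted signals, 113 with slide 1 alone, and 74 with red signals after the array level was removed, which was added after seeing the data. Without 1 mouse, 159 to 189 were kept. In other settings, 142 were kept with slide 2 alone, 150 with the SD divided by its trend over signal, 154 with a single probe per symbol, and all but 2 without non-uniform spots and also with signals of at least 100. In groups of at least 10 stood 167 members, but 92 with complete linkage, 115 with a cut at r = 0.7, and 160 to 191 without 1 mouse. Lists with at least 3 member genes numbered 13, but 7 with 100 members and 8 with background-subtracted signals. Members called higher by limma numbered 13, but 23 at an adjusted p under 0.05, 36 with background-subtracted signals, and 6 to 18 without 1 mouse. Members called lower numbered 1, but 2 with slide as a covariate, 3 at an adjusted p under 0.05, 2 at 1.5-fold, 13 with background-subtracted signals, and 0 to 1 without 1 mouse. The 0 came from limma without replicate 3 or 4, where 4 and 3 members were lower at 2-fold and an unadjusted p under 0.05. The cause of these changes was not tested. With background-subtracted signals, probes chosen on slide 1 had a median SD of 0.47 on slide 2 (all eligible probes 0.42), those chosen on slide 2 had 0.29 on slide 1 (0.24), and 25 were shared. The share that each group kept was lowest at 20 of 44, 17 of 40, 12 of 25, 8 of 19, 10 of 17, 7 of 11 and 5 of 11 probes staying together. No paired analysis was possible because every array sets a single mouse against the same pool and the labels give no second group with replicate numbers.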
